A study of Mus musculus with 6 samples.

Results

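The 10 genes described here encode H3K9 methyltransferases, heterochromatin protein 1 (HP1) family members and 2 of their closest partners, among 55413 annotated mouse genes. They were Suv39h2, Ehmt1, Ehmt2, Setdb1, Setdb2, Cbx1, Cbx3, Cbx5, Trim28 and Atrx, chosen by name and not by their signal. H3K79me2 ChIP-seq peaks were read over the body and the 3 kb upstream of each gene (GENCODE M21, mm10), called here the gene window. The libraries came from N2a cells, a mouse neuroblastoma line, fixed after 3 days in vitro. The CTR group received a non-targeting shRNA plasmid (shControl) and the NPM1 KD group a plasmid with an shRNA against Npm1 (shNPM1). Both plasmids had the pLKO.1 backbone. The study's methods describe puromycin selection of N2a cells in knockdown experiments, without limiting it to either group. Each group had 2 ChIP libraries from separate transfections of this one line, so the p-values speak for these cultures alone. The peak lists hold no measure of Npm1 RNA, and the knockdown itself could not be checked in them.

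Methylation of histone H3 at lysine 9 marks heterochromatin. SUV39H2 places the trimethyl mark at constitutive heterochromatin, the EHMT1 (GLP) and EHMT2 (G9a) pair places mono- and dimethylation in euchromatin, and SETDB1 is brought by the corepressor TRIM28 to repeats such as endogenous retroviruses. HP1β (Cbx1), HP1γ (Cbx3) and HP1α (Cbx5) bind methylated H3K9 through their chromodomains, and ATRX is a chromatin remodeler that loads histone H3.3 with DAXX. The mark measured here, H3K79me2, is deposited by DOT1L over the transcribed 5′ part of active genes, so these peaks report on the genes that encode the heterochromatin proteins and not on heterochromatin.

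The narrow lists held 73801 to 88348 peaks per library and the broad lists 34845 to 48764, both lowest in CTR 2. The median background pileup was 11.9 and 7.65 fragments in the CTR libraries (replicates 1 and 2) and 8.99 and 11.8 in the knockdown libraries. CTR 2 had the lowest value. Broad peaks covered 223 to 236 Mb of the genome in CTR and 244 to 253 Mb in NPM1 KD, so a longer covered length after knockdown was the general direction of these lists.

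All 10 RefSeq promoters of the members were matched (GRCm38.p6, 250 bases before to 50 bases after the start). The 4 below are shown because the broad peaks covered them to different extents. They run 5′ to 3′ on the gene's strand with each CG dinucleotide in capitals, and the promoters of Cbx5 and Trim28 were added after their values were seen.
Cbx3 (chr6:51470366-51470665, plus strand): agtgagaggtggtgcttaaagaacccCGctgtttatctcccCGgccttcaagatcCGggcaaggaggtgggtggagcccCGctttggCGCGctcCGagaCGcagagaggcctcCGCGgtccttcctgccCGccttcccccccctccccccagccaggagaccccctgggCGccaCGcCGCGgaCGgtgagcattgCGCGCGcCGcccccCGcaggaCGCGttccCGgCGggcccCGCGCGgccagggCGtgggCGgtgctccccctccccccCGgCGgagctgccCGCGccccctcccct
Setdb1 (chr3:95357153-95357452, minus strand): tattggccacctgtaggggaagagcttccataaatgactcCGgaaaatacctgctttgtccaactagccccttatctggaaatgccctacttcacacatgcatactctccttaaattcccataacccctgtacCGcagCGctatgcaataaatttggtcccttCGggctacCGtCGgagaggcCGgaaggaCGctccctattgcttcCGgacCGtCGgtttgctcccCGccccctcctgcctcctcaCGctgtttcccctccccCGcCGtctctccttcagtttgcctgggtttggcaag
Cbx5 (chr15:103239803-103240102, minus strand): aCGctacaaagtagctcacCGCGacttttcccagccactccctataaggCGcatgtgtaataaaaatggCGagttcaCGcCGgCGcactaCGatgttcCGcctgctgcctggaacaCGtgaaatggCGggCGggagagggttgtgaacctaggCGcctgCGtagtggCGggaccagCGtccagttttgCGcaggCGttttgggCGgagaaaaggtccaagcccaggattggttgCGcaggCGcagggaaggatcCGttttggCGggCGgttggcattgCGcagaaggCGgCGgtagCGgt
Trim28 (chr7:13023902-13024201, plus strand): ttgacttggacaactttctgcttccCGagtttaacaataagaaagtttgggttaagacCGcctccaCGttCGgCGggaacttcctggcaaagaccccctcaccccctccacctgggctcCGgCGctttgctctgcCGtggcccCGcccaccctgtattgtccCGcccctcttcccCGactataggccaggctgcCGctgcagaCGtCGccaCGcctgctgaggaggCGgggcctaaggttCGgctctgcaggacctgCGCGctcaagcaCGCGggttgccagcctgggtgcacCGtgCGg

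The Cbx3 promoter was covered over all 300 bases in all 4 libraries. At Setdb1 the broad peak began inside the promoter, and covered 213 and 129 bases in CTR and 226 and 293 in NPM1 KD. At Cbx5 no base was covered in CTR 1, CTR 2 or NPM1 KD 2, while NPM1 KD 1 covered all 300. The Trim28 promoter was outside the broad peaks in every library. Of the 12022 RefSeq promoters with a broad peak within 1 kb of the start in all 4 libraries, 41.6% were wholly covered in all 4 and 15.4% were uncovered in all 4.

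The members' promoters held more CpG than most RefSeq promoters. Their median was 29 CpG in 300 bases against 7 over 32851 promoters, from 11 at Atrx (58.6% of promoters had fewer) to 40 at Ehmt2. Of the 32851, only 36.6% had a broad peak within 1 kb of the start in all 4 libraries. CpG counts and motif shares among those promoters were not computed, so the comparisons here are with marked and unmarked promoters together. In a search of both strands, the letters TGCGCA, the core of the NRF1 motif, were in the promoters of Ehmt1, Cbx1 and Cbx5, and in 7.76% of all promoters. The letters CCAAT were in 4 of the 10, those of Setdb1, Setdb2, Cbx5 and Atrx, and in 37.4% of all promoters. CCGGAAG (ETS) was found at Setdb1 alone and AAGATGG (YY1) at Suv39h2 alone, against 8.86% and 6.34% of all promoters. CACGTG (E-box) was in the promoters of Ehmt2 and Cbx5 and in 7.15% of all. No member promoter held TATAAA, which 13.6% of all promoters held. A match is a description of the sequence only.

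All 10 genes carried a broad H3K79me2 peak in all 4 libraries, but to very different extents. Cbx5 and Cbx3 were covered over nearly the whole window, and Setdb1 over a short stretch at its 5′ end. Over the 2 CTR libraries the mean percent of the window covered was 95.1% at Cbx5, 93.1% at Cbx3, 86.2% at Cbx1, 75.7% at Ehmt1, 67.1% at Suv39h2, 59.3% at Ehmt2, 50.0% at Setdb2, 40.4% at Atrx, 30.2% at Trim28 and 17.01% at Setdb1. This order was the same in each of the 4 libraries, and the ranges of neighbouring genes did not overlap over them. The Trim28 window includes 25038 bp before its principal transcript, and broad peaks covered 93.2% to 97.5% of that transcript. The members' median was 63.2% against 48.7% over 11019 protein-coding genes with a mean covered length of at least 1000 bp, and 7 of 10 lay above that median.

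**Figure D1:**
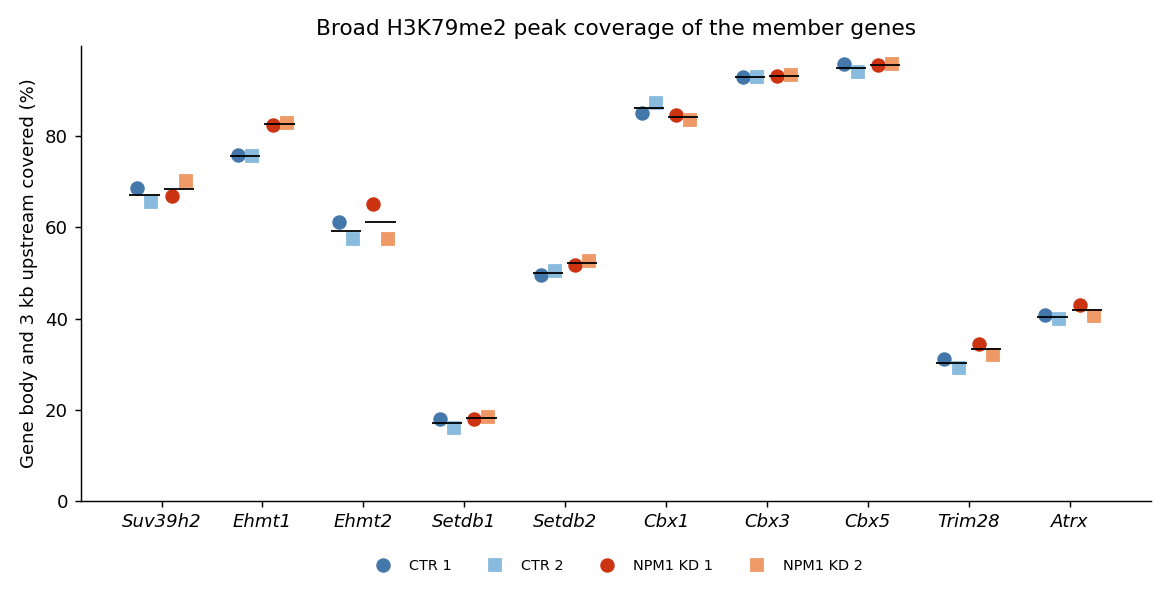
Percent of the gene body and 3 kb upstream under broad H3K79me2 peaks (y axis) for each member gene, with 1 point per library and a line at each group's mean of 2 libraries. Ehmt1 shows the clearest gap between groups (75.6% and 75.9% in CTR, 82.5% and 83.0% in NPM1 KD), and Suv39h2, Ehmt2, Setdb1, Cbx5 and Atrx have overlapping groups.

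After knockdown the covered length was longer at 9 of 10 members on average, by small amounts. The log2 difference in covered length was above 0 at 73.9% of 16470 genes tested and at 83.8% of the 11019 protein-coding genes among them. Complete separation with the 2 NPM1 KD values on the higher side was seen at 4 of 10 members (Ehmt1, Setdb2, Cbx3 and Trim28), against 40.3% of the 16470 genes with at least 1000 bp covered on average. The reverse separation was seen at 1 of 10 (Cbx1), against 3.01% of those genes. The members' share above is that of genes in general. No gene was called by limma on log2(covered bp + 1000) at an adjusted p of 0.05 (0% of 16470), although 2220 had an unadjusted p under 0.05, 2121 of them higher in NPM1 KD. The members' adjusted p ran from 0.175 (Ehmt1) to 0.924 (Ehmt2). Their median log2 difference was 0.044, beside 0.058 over all genes tested and 0.080 over protein-coding genes alone. With 2 libraries per group, the exact two-sided permutation test cannot give a p below 0.333.

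The narrow lists gave a similar count from a partly different set of members. Covered length was higher in both NPM1 KD libraries at 5 of 10 members (Suv39h2, Ehmt1, Setdb1, Setdb2 and Cbx5) against 38.2% of 16164 genes, and lower at none against 3.89%. With broad peaks limited to a −log10 q of at least 5, Ehmt1, Setdb1, Cbx3, Trim28 and Atrx (5 of 10) were above, against 31.4% of 14727 genes. Cbx1 alone was below (1 of 10), against 3.85%. Ehmt1 was above in all 3 of these lists.

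Among the methyltransferases, Ehmt1 (ENSMUSG00000036893.17, chr2:24789928-24919614, minus strand) had the largest difference in covered length. Broad peaks covered 100.7 kb in CTR 1 and 100.3 kb in CTR 2, and 109.5 kb and 110.1 kb in NPM1 KD 1 and 2. Both knockdown libraries were above both controls. As a percent of the 132687 bp window the CTR mean was 75.7% ± 0.214 and the NPM1 KD mean 82.7% ± 0.365 (SD, n = 2 each), a difference of 9312 bp. The log2 difference was 0.13 with a standard error of 0.0061 and an adjusted p of 0.175 in limma, which lay at percentile 67.3 of all genes' differences. The difference kept its sign without any single library and in every other setting, from 7663 bp in the narrow lists to 13148 bp in broad peaks with the stricter q.

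Most of the added length at Ehmt1 lay in its 3′ part. With the transcript divided into 10 equal parts, parts 1 to 3 were covered in full in all 4 libraries. In part 7 coverage was 75.6% and 81.6% in CTR and 100% and 96.1% in NPM1 KD. In part 9 it was 43.7% and 46.4% against 64.9% and 68.7%, and the groups did not overlap in either part. Part 4 was separated too, at 85.9% and 87.4% in CTR and 92.6% and 93.9% in NPM1 KD. So was part 10, at 43.9% and 43.7% in CTR and 57.8% and 53.7% in NPM1 KD. Segments of at least 200 bp found in both knockdown libraries and in neither control numbered 5, all in introns. They measured 680 bp in intron 13, 1103 bp in intron 15 (chr2:24834331-24835433), 715 bp in intron 18, 303 bp in intron 21 and 459 bp in intron 25. The run of broad peak from the start reached 40.1 and 46.7 kb in CTR and 47.1 and 47.5 kb in NPM1 KD, ending in intron 3 in CTR 1 and in intron 4 elsewhere. The highest narrow fold stood in intron 1 in every library.

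**Figure D2:**
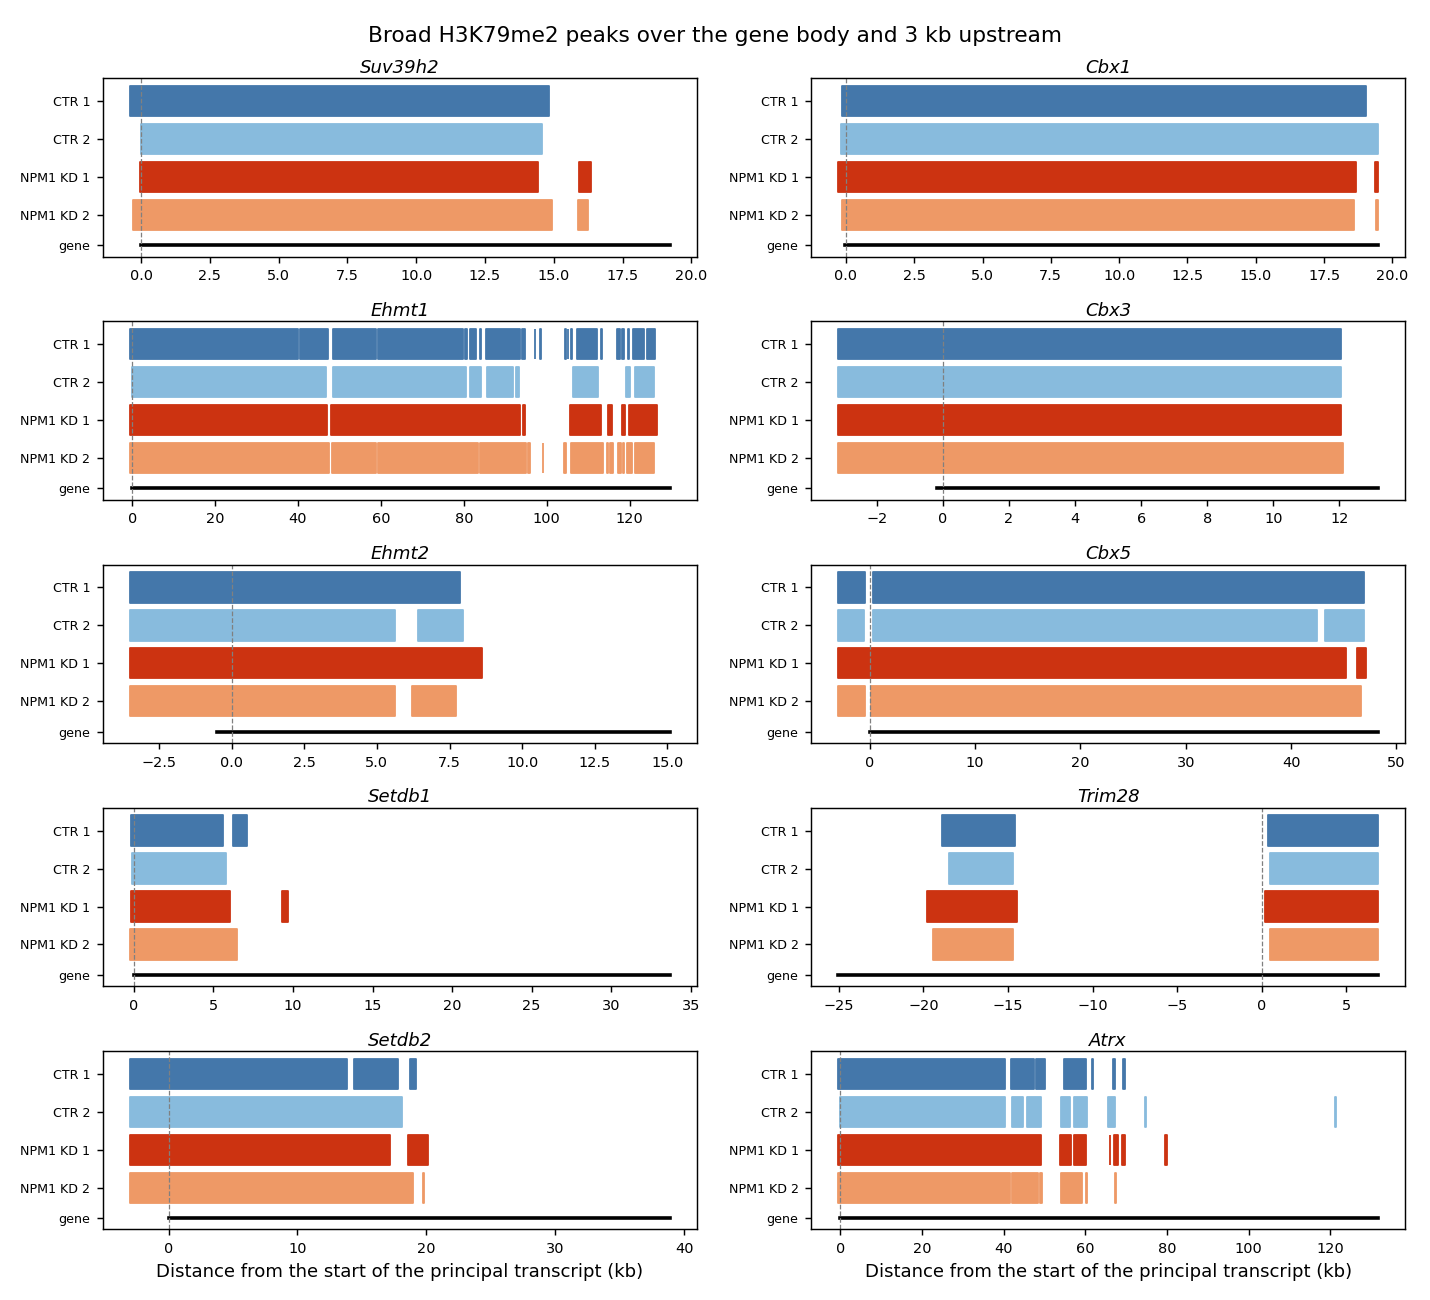
Broad H3K79me2 peaks of each library (coloured bars) over the body and 3 kb upstream of the 10 genes, by distance in kb from the start of the principal transcript (dashed line), with the annotated gene as a black line. Peaks stop well short of the gene's end at Suv39h2, Setdb1, Setdb2, Ehmt2 and Atrx, apart from a short CTR 2 peak at Atrx (121.3 to 121.5 kb). They run to the upstream edge of the window at Ehmt2, Setdb2, Cbx3 and Cbx5. The start itself is left bare at Trim28 and, in 3 of 4 libraries, at Cbx5.

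Ehmt2 (ENSMUSG00000013787.15, chr17:34898469-34914052, plus strand), whose product forms a heterodimer with that of Ehmt1, was covered over 11.4 and 10.7 kb in CTR and 12.11 and 10.67 kb in NPM1 KD. The groups overlapped, and NPM1 KD 1 alone stood higher. The run from the start ended in coding exon 13 in CTR 1, in coding exon 16 in NPM1 KD 1 and already in intron 6 in the other 2 libraries. The last 4 of the 10 equal parts of the transcript were uncovered in all 4. The domain also ran 3874 to 4047 bp upstream of the gene start, where the divergent C2 gene starts at −204 bp and Zbtb12 lies, so the upstream part cannot be assigned to Ehmt2.

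Suv39h2 (ENSMUSG00000026646.16, chr2:3455815-3475031, minus strand) was covered over 15.2 and 14.6 kb in CTR and 14.9 and 15.6 kb in NPM1 KD, with overlapping groups. The broad domain from the start ran 14.4 to 14.9 kb and ended in intron 4 in all 4 libraries. A further broad peak lay past this domain in both NPM1 KD libraries and in neither CTR library (2 against 1 peaks), and 316 bp of it were shared by the knockdown libraries. This stretch lies where the antisense gene Dclre1c, which encodes the DNA repair nuclease Artemis, overlaps Suv39h2. Other genes made up 64.1% of the Suv39h2 window, and in the remaining sequence the difference was −49.0 bp with overlapping groups.

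Setdb1 (ENSMUSG00000015697.14, chr3:95323525-95357202, minus strand) had the shortest coverage for its length. Covered length was 6.61 and 5.87 kb in CTR and 6.57 and 6.74 kb in NPM1 KD, of a 36678 bp window, and the groups overlapped. The run from the start, whose upstream edge lay in the promoter printed above, was 5.59 and 5.79 kb in CTR and 6.06 and 6.49 kb in NPM1 KD. These runs did not overlap between groups, and each ended in intron 3. Their order was not kept in the narrow lists, where the mean difference was −0.023 kb. From part 4 of the 10 equal parts onward no library had a broad peak.

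Setdb2 (ENSMUSG00000071350.12, chr14:59402009-59440884, minus strand), a SET domain relative of Setdb1, was covered over 20.7 and 21.1 kb in CTR and 21.7 and 22.1 kb in NPM1 KD. Both knockdown libraries were above both controls, by 943 bp on average (50.0% ± 0.653 against 52.3% ± 0.606 of the window, SD, n = 2 each). Its limma p was 0.0432 before and 0.356 after adjustment. Coverage reached into part 6 of 10 in NPM1 KD 1 (16.6%) and NPM1 KD 2 (3.40%), and in neither CTR library. Upstream, the domain ran on into the divergent Cab39l gene, which starts at −88 bp.

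**Figure D3:**
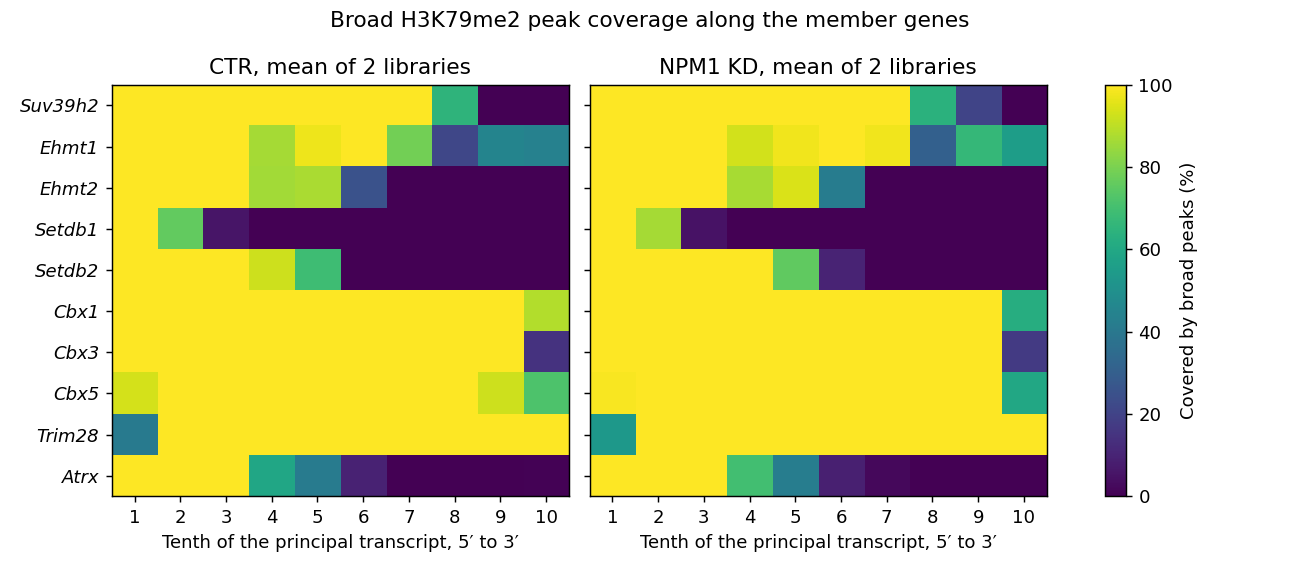
Percent of each of 10 equal parts of the principal transcript (x axis, 5′ to 3′) under broad H3K79me2 peaks, as the mean of 2 libraries for CTR (left) and NPM1 KD (right). The 3 HP1 genes and Trim28 are covered to or near the 3′ end, Setdb1 only in parts 1 to 3, and the largest differences between panels are at Cbx1 part 10 (88.4% in CTR and 62.5% in NPM1 KD), Ehmt1 part 9 (45.0% and 66.8%), Suv39h2 part 9 (0% and 20.4%) and Ehmt1 part 7 (78.6% and 98.0%).

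By share of the window, the HP1 genes were the most fully covered members. Of the principal transcript, more was covered at Trim28 (93.2% to 97.5%) than at Cbx3 (91.4% to 91.8%) in all 4 libraries. Cbx5 (ENSMUSG00000009575.14, chr15:103191544-103239816, minus strand), encoding HP1α, was covered over 49.2 and 48.3 kb in CTR and 49.0 and 49.1 kb in NPM1 KD, with overlapping groups. The peaks stopped 489 and 541 bp before the start in CTR 1 and CTR 2 and resumed 282 and 323 bp after it. In NPM1 KD 2 the gap ran from −435 bp to 102 bp after the start, and in NPM1 KD 1 a single broad peak crossed the start. The promoter printed above falls in this gap. The divergent Hnrnpa1 gene, encoding an abundant RNA-binding protein, starts at −616 bp, and the peaks upstream of the gap extended 7136 to 7552 bp through it.

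Cbx3 (ENSMUSG00000029836.15, chr6:51470360-51483704, plus strand), encoding HP1γ, was covered over 15.21 and 15.22 kb in CTR and 15.23 and 15.27 kb in NPM1 KD. The groups did not overlap, but the difference was 30.5 bp, or 0.187 percentage points. One broad peak spanned it in each library and ended in exon 6, the last exon, so that 100% of intron and 40.1% to 42.8% of exon sequence was covered. The peak ran 10872 to 11981 bp upstream through the divergent Hnrnpa2b1 gene, which starts at −466 bp.

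Cbx1 (ENSMUSG00000018666.13, chr11:96789127-96808640, plus strand), encoding HP1β, was the only member with a lower mean broad coverage after knockdown. Covered length was 19.2 and 19.7 kb in CTR and 19.1 and 18.8 kb after knockdown. Mean coverage was 86.2% ± 1.54 against 84.2% ± 0.769 of the window (SD, n = 2 each), a difference of −440.0 bp (limma adjusted p = 0.567). The main peak ended in the 3′ UTR exon 6 in CTR 1, ran 21305 bp past the transcript in CTR 2, and ended in intron 5 in both NPM1 KD libraries, which had a separate second peak after a break. The segment held by both controls and by neither knockdown library was 348 bp of intron 5 (chr11:96807841-96808188). In the narrow lists the difference had the other sign, 64.0 bp, with overlapping groups.

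Trim28 (ENSMUSG00000005566.14, chr7:12999114-13031035, plus strand), encoding KAP1, has an annotated gene start 25038 bp upstream of its principal transcript, and 23.5% of its window lies in other genes. Covered length was 10.9 and 10.2 kb in CTR and 12.04 and 11.15 kb in NPM1 KD, and the groups did not overlap. The difference lay in the antisense Zbtb45 gene, a zinc finger gene, where 4360 and 3777 bp were covered in CTR and 5327 and 4733 bp in NPM1 KD. Without other genes, the values were 6534 and 6418 bp in CTR and 6714 and 6414 bp in NPM1 KD, and the groups overlapped. The broad peak began 350, 466, 170 and 470 bp after the principal start in CTR 1, CTR 2, NPM1 KD 1 and NPM1 KD 2, which left the promoter printed above uncovered. It ran past the transcript's 3′ end in all 4 libraries, by 6720 to 9144 bp.

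Atrx (ENSMUSG00000031229.16, chrX:105797615-105929403, minus strand) was covered over 55.0 and 53.9 kb in CTR and 58.0 and 54.6 kb in NPM1 KD, with overlapping groups. Its run from the start was 40.4 and 40.3 kb in CTR and ended in intron 3, whereas it was 49.2 kb in NPM1 KD 1 (to intron 6) and 41.5 kb in NPM1 KD 2 (to intron 4). The knockdown runs were longer, and most of the mean difference of 5.01 kb came from NPM1 KD 1. Both knockdown libraries and neither control covered 1098 bp of intron 4 (chrX:105887949-105889046) and 233 bp of intron 10. In the other direction, both controls and neither knockdown library covered 268 bp of intron 10. Coverage was 0% in parts 8 and 9 of the 10 equal parts in all 4 libraries.

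Over the 9 members with a domain at the annotated start, the downstream run was longer in both NPM1 KD libraries at 4 (Ehmt1, Setdb1, Cbx3 and Atrx), against 36.8% of 14799 genes. It was shorter at 1 (Cbx1), against 6.16%. Of all bases of the members' windows covered in any library, 85.8% were covered in all 4, 1.99% in both NPM1 KD libraries alone and 0.185% in both CTR libraries alone. Over all tested genes these shares were 77.5%, 2.81% and 0.321%.

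Peak height was on average lower after knockdown at most members, with no member called. The fold of a narrow peak is its summit pileup over the background, each with 1 fragment added, and the highest fold in each window was taken. At Cbx5 it was 46.3 and 46.8 in CTR and 40.0 and 37.3 in NPM1 KD, and this summit lay at −1913 to −1864 bp, in Hnrnpa1. At Trim28 it was 32.4 and 34.7 in CTR and 30.1 and 25.1 in NPM1 KD, in coding exon 2 or 3 of the transcript. At Cbx3 it was 27.5 and 28.0 in CTR and 26.8 and 24.0 in NPM1 KD, at positions that differed between libraries. The CTR 1 summit lay at −993 bp, in Hnrnpa2b1, and those of CTR 2, NPM1 KD 1 and NPM1 KD 2 in introns of Cbx3. These 3 of 10 members had both NPM1 KD libraries below both CTR libraries, against 26.5% of 14475 genes, and none had both above, against 10.2%. Which members separated depended on the scaling. After centring on each library's median log2 fold, Cbx3 overlapped (1.15 and 1.25 in CTR, 1.10 and 1.16 in NPM1 KD) and Ehmt2 was separated (0.954 and 0.913 against 0.905 and 0.574), while Cbx5 and Trim28 stayed below. The 26.5% and 10.2% belong to folds that were not centred, and the share of all genes on the centred scale was not computed. Which members separated after centring is thus a description only.

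The other narrow folds, not centred, overlapped between groups. NPM1 KD 2 was the lowest library at Ehmt1 (24.6, against 29.1 to 32.2 in the others), Ehmt2 (16.0, against 22.2 to 23.9), Setdb1 (12.8, against 18.2 to 21.4) and Suv39h2 (22.4, against 24.5 to 26.2). Over all genes with a narrow peak, the median log2 highest fold was also lowest in NPM1 KD 2 (3.42, against 3.56 to 3.65). The lowest values among the members were those of Atrx (10.8 to 12.7) and Setdb2 (11.4 to 12.2). The summit pileups behind these folds ranged from 103 fragments (Setdb2, CTR 2) to 595 (Cbx5, CTR 1). The summit of Suv39h2 lay in intron 1, 1310 to 1355 bp after the start in all 4 libraries, inside the antisense transcript Gm13184. That of Setdb1 also lay in intron 1, 344 to 465 bp after the gene start.

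**Figure D4:**
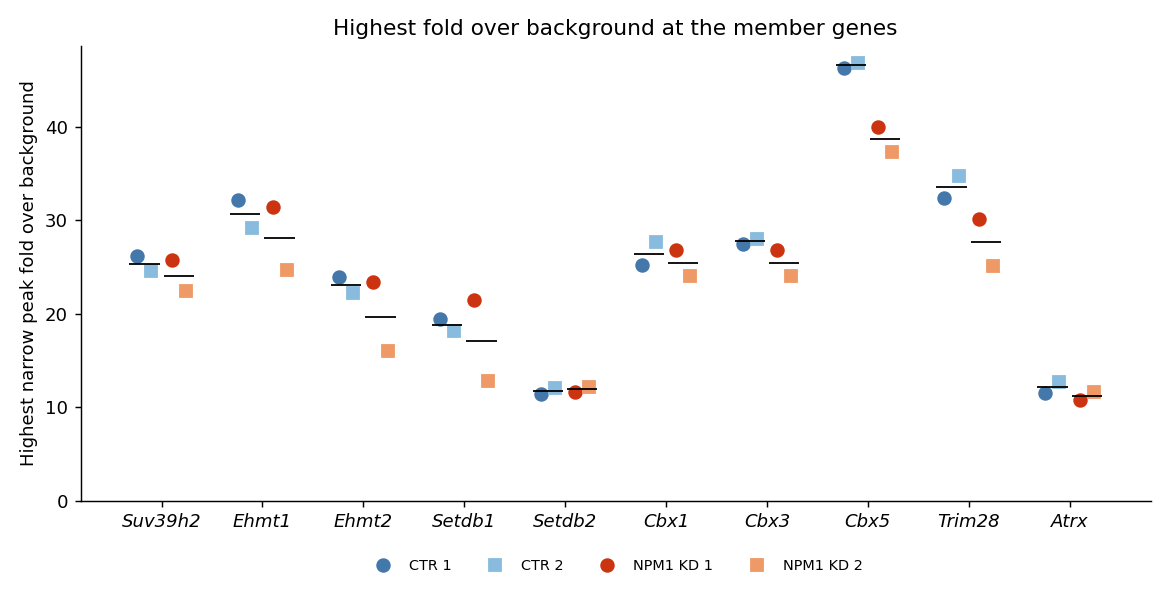
Highest narrow H3K79me2 peak fold over background (y axis) in the window of each member gene, with 1 point per library and a line at each group's mean of 2 libraries. Cbx5 stands highest, with 46.3 and 46.8 in CTR and 40.0 and 37.3 in NPM1 KD, and Setdb2 and Atrx stand lowest.

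In the limma fit on the log2 highest fold, centred on each library's median, 20 genes were called (0.138% of 14475) and no member was. The members' adjusted p were 0.655 or more. The log2 difference was below 0 at 8 of 10 members, while it was above 0 at 46.7% of the 14475 genes. The members' median was −0.074 beside −0.015 over all genes tested. Among the members the difference was lowest at Trim28 (−0.23, SE 0.127) and Cbx5 (−0.21, SE 0.125). In the broad lists the fold is a mean over the peak, and the members' values below were not centred. Both NPM1 KD libraries were below at 7 of 10 members (Suv39h2, Ehmt1, Ehmt2, Cbx3, Cbx5, Trim28 and Atrx), against 38.8% of 17091 genes. They were above at none, against 10.1%. Which members would separate after centring was not tested for the broad folds. At Cbx5 the broad folds were 16.7 and 16.4 in CTR and 10.9 and 14.4 in NPM1 KD, the lowest being the library whose peak crossed the start. At Trim28 they were 10.2 and 10.3 against 8.87 and 8.63. The broad folds are not adjusted for the longer peaks, and the part of peak length in these values was not tested.

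Genes that work with these proteins were read in the same way. The list had 24 genes, namely partners of SETDB1 and TRIM28, the HUSH silencing complex, partners of G9a and GLP, HP1 binding proteins, ATRX partners, H4K20 methyltransferases, Uhrf1, Hells and Prdm2. None was called by limma for covered length (smallest adjusted p = 0.204, at Fam208a), and 5 of 24 had an unadjusted p under 0.05, beside 2220 of 16470 genes in all. Their median log2 difference was 0.051, beside 0.058 over all genes. Both NPM1 KD libraries were above at 13 of 24 and below at 2 of 24, against the 40.3% and 3.01% of all genes given above. Fam208a, which encodes the HUSH subunit TASOR, was covered over 22.4 and 23.4 kb in CTR and 29.2 and 30.1 kb in NPM1 KD, or 39.6% ± 1.22 and 51.3% ± 1.05 of its window (SD, n = 2 each). Pphln1, encoding the HUSH subunit periphilin, had 84.4 and 87.0 kb in CTR and 88.9 and 90.3 kb in NPM1 KD. Both genes are named for the size of this difference, so their direction is no measure of the complex.

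The 2 partners with both NPM1 KD libraries below both controls were Atf7ip and Incenp. Atf7ip, the cofactor that stabilises SETDB1, had 64.9 and 63.3 kb in CTR and 63.1 and 62.3 kb in NPM1 KD. Incenp, encoding an HP1-binding subunit of the chromosomal passenger complex, had 26.3 and 26.8 kb in CTR and 25.8 and 25.6 kb in NPM1 KD. These 4 partners are named as the 2 with the largest and the 2 with the smallest difference in covered bp, an order that is not that of the log2 difference or of the percent covered.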

How the data were processed

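Per the labels and the study's methods, paired-end reads of H3K79me2 ChIP from N2a cells were aligned to mm10 with Bowtie2 (2.3.4.1 in the submitters' processing notes), and peaks were called per library with MACS2 (2.2.6 in those notes; another version is named in the methods). The pooled input of each group was not analysed here. The deposited lists give each peak's score, fold (a ratio of pileup to background), −log10 p and −log10 q, all as the authors' peak caller wrote them. The score was not used in any result.

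Gene windows, covered length, domains and the highest fold were computed from the lists with Python 3.11.15, numpy 2.4.6 and pandas 2.3.3. Background pileup was recovered from fold and p, and the recovered summit pileups were whole (within 0.05) for 100% of the peaks solved. Genes on the assembled chromosomes with a mean covered length of at least 1000 bp were tested with limma 3.58.1 (R 4.3.3) on log2(covered bp + 1000), and those with a narrow summit in all 4 libraries on median-centred log2 highest fold, with Benjamini-Hochberg adjustment at 0.05 over all genes. Narrow lists, a stricter q, the gene body alone, lists of equal size, other pseudocounts and scalings, a replicate block and the removal of each library were tried as alternatives. The tests were checked on simulated data. Read-based differential binding was not possible from peak lists. The study's own read-based test of these libraries reported regions with significantly changed H3K79me2, more of them lower than higher after knockdown. Those regions were not compared with the values here. The members, the partner list and the motifs were chosen with earlier results of these data known. Text was limited to the members, the genes overlapping their windows, the partners past the threshold or else the 2 largest and 2 smallest differences, and the promoters of members with a peak over the start in all 4 libraries, with Cbx5 and Trim28 added. Values without other genes, from the principal transcript start, or with the domain ended at the gene end were added after seeing the data.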

Additional observations from a re-analysis of the deposited data

How the results depend on the processing

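The peak lists hold positions and folds but not reads, so depth limits them through the shallowest library, CTR 2, and 2 libraries per group limit every test. No member was called for covered length in any of the 140 limma values over all settings (smallest adjusted p = 0.159), nor for highest fold in any of 100 (smallest 0.315). Over all genes, the count called for covered length, 0 in the reported setting, was 62 when broad peaks needed a −log10 q of 5 or more, 2 over the gene body alone, 5 with no minimum length, 1 with a pseudocount of 200 bp and 1 with protein-coding genes alone, and it stayed at 0 without any single library. The count called for highest fold, 20 as reported, was 42 to 99 without single libraries (55 without CTR 1, 42 without CTR 2, 99 without NPM1 KD 1 and 56 without NPM1 KD 2), 12 with protein-coding genes alone and 95 with the broad lists. The number of members below in covered length fell from 1 to 0 in the narrow lists.

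The members' median difference in percent covered was 1.39 points. It ran from 0.163 (without CTR 2) to 1.97 (without CTR 1) when single libraries were left out, and from 0.816 (without other genes) to 2.50 (the stricter q) in the other settings. The median difference in the domain downstream of the start was 0.590 kb, and was 0.0355 kb without CTR 2, 0.806 kb without NPM1 KD 1, 0.254 kb with peaks within 1 kb joined and 0.263 kb with narrow lists. Ehmt1, Setdb1, Setdb2, Cbx3, Trim28 and Atrx kept the sign of their covered length difference in all 9 other settings, whereas Suv39h2 kept it in 5 of 9.

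The members' median log2 difference in highest fold, −0.074, was −0.13 when not centred and ran from −0.11 to −0.05 without single libraries. Leaving out single libraries turned the sign at Cbx1 (−0.10 to 0.10), Atrx (−0.22 to 0.10), Setdb1 (−0.39 to 0.14) and Setdb2 (−0.065 to 0.23). Those libraries were CTR 1 and NPM1 KD 2 for Cbx1, CTR 2 and NPM1 KD 1 for Atrx, and NPM1 KD 2 for Setdb1 and Setdb2. The sign also turned at Cbx1 when not centred (−0.056), and in the broad lists at Cbx1 (−0.030) and Setdb1 (0.069). The cause of these changes was not tested.

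With the replicate number as a block, 0 genes were called for covered length and 17 for highest fold, and the medians of 1.39 points, 0.590 kb and −0.074 were the same by construction. Deviations of same-numbered libraries correlated at 0.242 over 16470 genes, which with 2 pairs does not decide a pairing, so the numbers were not taken as one.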
